A study of Mus musculus with 6 samples.

Results

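The genes described here encode the proteins of the cytosolic ribosome. They were chosen by name from the RefSeq annotation of the mouse assembly GRCm38.p6: protein-coding genes on chromosomes 1 to 19 whose symbol is Rpl or Rps followed by digits and, at most, a short suffix, without pseudogenes and without the Rps6k kinases. This gave 82 of 20665 autosomal protein-coding genes, of which 48 encode large-subunit proteins, 31 encode small-subunit proteins and 3 (Rplp0, Rplp1 and Rplp2) encode the stalk of the large subunit. DNA methylation was measured in endothelial cells sorted from the lungs of 3 Dnmt3a knockout (KO) and 3 wild-type (WT) mouse samples by tagmentation-based whole-genome bisulfite sequencing, a bisulfite method for small amounts of DNA. The labels give the genotype only as KO or WT and do not say which part of Dnmt3a was removed, in which cells, at what age, or whether each sample is 1 animal, so the p-values below reflect sample-to-sample spread that may be purely technical. Methylation levels were deposited per 1 kb tile with no read numbers, and the depth behind a value is unknown. The error of a group's level is the SD over its 3 samples, and the error of a difference is the standard error (SE) of the fit.

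DNMT3A is a de novo DNA methyltransferase, an enzyme that adds a methyl group to cytosines of CpG dinucleotides without needing a methylated partner strand. Ribosomal protein genes are transcribed in every growing cell, and their starts usually lie in CpG islands, stretches rich in CpG that stay free of methylation. Their transcripts typically begin with a cytosine followed by a run of pyrimidines, the terminal oligopyrimidine tract, through which mTOR signalling controls their translation, and many of their introns carry small nucleolar RNAs.

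Across the table, the mean level was 63.5, 63.7 and 63.8% in the KO samples and 69.5, 68.8 and 68.7% in the WT samples, so the groups did not overlap. The median level per sample was 4.89 points lower in KO than in WT, and counts are therefore also given with each sample centred on its own median. Methylation cannot show whether Dnmt3a was deleted, so the genotype labels were not checked by this assay. As a check of the cell type, the starts of 9 pan-endothelial marker genes averaged 11.95% in KO and 15.4% in WT, and 0 of them reached 50% in WT. The starts of 8 leukocyte markers averaged 56.0 and 63.8%, those of 5 erythroid markers 51.8 and 55.9%, those of 9 lung epithelial markers 27.9 and 40.1%, and those of 7 mesenchymal markers 14.98 and 28.9% in KO and WT. In WT, 7 leukocyte, 4 erythroid, 3 epithelial and 0 mesenchymal starts reached 50%. That level therefore does not separate endothelial from mesenchymal markers. Of these non-endothelial starts, 2 leukocyte, 5 epithelial and 4 mesenchymal ones were called lower in KO by the rule given below. A loss of methylation in each cell and a change in the mix of sorted cells cannot be told apart in such bulk samples, and the part of other cells in the results was not tested.

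Most starts of the ribosomal protein genes had a low level in both groups, and a minority did not. A start was taken as the tiles that overlap 500 bp on either side of the RefSeq start, which was at hand for 62 of the 82 genes. Over these 62 starts the mean level was 14.1, 13.8 and 14.6% in the KO samples and 17.3, 17.1 and 16.3% in the WT samples. In 38 of the 62 starts (61.3%) both group means were under 10%, as they were in 32.5% of all starts measured. Of the other starts, 6 had a WT level of at least 50%, and the rest reached up to 36.6% in KO and 44.1% in WT (Rplp0). Rpl15, a core protein of the large subunit, had 0.92% in KO and 0.612% in WT, and Rps6, the small-subunit protein phosphorylated downstream of mTOR, had 0.974% in KO and 1.13% in WT. Called lower in KO (limma with a variance trend over all gene starts, Benjamini-Hochberg adjusted p under 0.05 and at least 10 points) were 2 of the 62 starts, against 12.8% of all 15934 starts, and 0 were called higher, against 0.0565%. The median difference was -1.81 points for the ribosomal protein genes and -2.73 points for all genes. A start under 10% in WT cannot fall by 10 points, so the lower share called here is tied to the larger share of low starts. Without the minimum of 10 points, 18 of the 62 starts passed, against 30.6% of all starts. All 3 KO samples were below all 3 WT samples at 33 of the 62 starts, against 43.9% of all starts. With 1000 bp on either side 5 starts were called, against 16.6% of all, and with the tile that holds the start alone 1 was called, against 7.51%.

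The sequence at these starts was examined because the tract is the feature that names the transcripts. Below are 30 bases around the start, 15 on each side, with the longest pyrimidine run that covers or touches bases -2 to 3 in capitals. The sequences are from RefSeq on GRCm38.p6, on the strand of the gene, for 6 members with long runs and for Rplp0, which has none.
Rpl15, chr14:18270972-18271001, minus strand: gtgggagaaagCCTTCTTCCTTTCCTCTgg
Rpl35, chr2:39005117-39005146, minus strand: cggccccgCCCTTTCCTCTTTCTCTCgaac
Rpl28, chr7:4792950-4792979, plus strand: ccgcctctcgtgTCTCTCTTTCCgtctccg
Rpl7a, chr2:26910792-26910821, plus strand: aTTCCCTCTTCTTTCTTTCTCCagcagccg
Rps6, chr4:86857353-86857382, minus strand: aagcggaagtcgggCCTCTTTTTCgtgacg
Rps10, chr17:27635230-27635259, minus strand: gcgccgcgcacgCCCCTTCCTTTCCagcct
Rplp0, chr5:115559452-115559481, plus strand: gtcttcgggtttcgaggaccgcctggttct
A run of at least 8 pyrimidines stood there in 19 of the 62 genes (30.6%), and in 6.90% of all 16457 promoter windows. A short pyrimidine word (CTTTT, or its shifted forms CCTTT and also CTTCC, or the longer TCTTTC, all of which can overlap) was found on the gene strand between bases -10 and 15 in 24 of 62 (38.7%), and in 10.4% of all windows. In the 300-base window around the start, on either strand, CCGGAA (the core bound by ETS factors) was found in 30 of 62 genes (48.4%) and 19.5% of all windows. GCCATNT, the core of the YY1 motif, was found in 16 of 62 (25.8%) and 14.3%, and the TATA box TATAAA in 5 of 62 (8.07%) and 13.5%. These are matches of letters and not sites of binding. The runs also depend on the annotated start, whose base was a cytosine in 24 of 62 genes (38.7%) and 13.8% of all windows. Where transcripts begin in these cells was not measured, so a missing run, as at Rplp0, does not show that the tract is absent.

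Both called starts stood apart from the low starts in level. Rpl37rt, a copy of the gene for the large-subunit protein L37, had 65.0, 76.8 and 70.1% at its start in the KO samples and 88.6, 89.4 and 87.4% in the WT samples. The groups did not overlap, and the difference was -17.8 ± 3.13 points (SE; limma, adjusted p = 0.00242). The start of Rpl37rt lies beside Acads, whose span overlaps one of its tiles. Rpl10a, which encodes a protein of the mobile L1 stalk, had 16.7, 14.7 and 15.7% in the KO samples and 26.4, 26.0 and 25.8% in the WT samples at its start. Its groups did not overlap either, with a difference of -10.4 ± 1.61 points (SE; limma, adjusted p = 0.00121). The tile that holds the Rpl10a start itself had 0.595% in KO and 1.67% in WT, and the difference came from the tile before it, with 30.8% in KO and 50.5% in WT. With centring, 1 of the 62 starts was called, Rpl37rt, against 6.03% of all starts. The Rpl10a call was lost in 5 of the alternatives run. These were centring (-5.46 points), scaling of each sample to one mean level (-8.68 points), leaving out KO sample 2 (-9.84 points), 1000 bp on either side (-8.30 points) and the start tile alone (-1.08 points).

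Among the 62 genes with a RefSeq start at hand, the high starts belonged to paralogs. Of the 62 starts, 6 had a WT level of at least 50%, and all 6 are among the 10 members that are named as like genes or copies of another member: Rpl10l, Rpl3l, Rpl39l, Rpl32l, Rpl37rt and Rps27rt. Rpl10l, an autosomal copy of the X-linked Rpl10 that is needed in male germ cells, had 78.6, 87.1 and 84.2% in the KO samples and 86.5, 91.5 and 85.7% in the WT samples, and the groups overlapped. Rpl3l, the muscle counterpart of Rpl3, had 57.9, 44.3 and 56.0% in the KO samples and 63.7, 66.7 and 59.7% in the WT samples. Its groups did not overlap, but the adjusted p of limma was 0.0654 for a difference of -10.6 ± 3.87 points (SE), so it was not called. Without KO sample 1 (-13.2 points) or with 1000 bp on either side (-11.3 points) it was called. Rpl39l, a testis-enriched paralog of Rpl39, averaged 73.8% ± 2.54 in KO and 75.0% ± 4.10 in WT (SD, n = 3 each). Rps27rt averaged 82.9% ± 2.91 in KO and 84.5% ± 3.45 in WT, and Rpl32l averaged 79.6% ± 2.71 in KO and 82.1% ± 5.34 in WT. The start tiles overlap Osbpl10 at Rps27rt and Map7 at Rpl32l. These copies are 374 and 592 bp long, so most of the sequence in those tiles lies outside them. The sign of the differences at Rpl10l, Rps27rt, Rpl32l and Rpl39l turned positive with centring, with 0 of them called. The other 4 paralogs had lower starts. Rpl22l1 had 22.2% in KO and 25.4% in WT, Rpl7l1 had 15.3 and 19.8%, Rpl36al had 5.33 and 5.70%, and Rps27l, whose protein replaces the S27 protein in some ribosomes, had 1.97 and 3.61%. Reads from near-identical copies could be placed on the wrong copy, and how the authors treated such reads is not given in the sources used here.

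CpG density differed between the high and the low starts. The 6 members with a WT start of at least 50% had a median of 10.5 CpGs in the promoter window, against 22.5 for the 56 other members and 14 for all promoter windows. Across the 62 starts, CpG number and WT level had a Pearson r of -0.479 and a Spearman rho of -0.412. Within the 56 starts under 50% they were -0.178 and -0.251. The points share the same 3 WT samples, and the relation is a description across genes. The 150 bases before the start are shown for 2 genes with low starts and their copies, with each CpG in capitals, since the parent and the copy differ in level.
Rps27, chr3:90213649-90213798, minus strand: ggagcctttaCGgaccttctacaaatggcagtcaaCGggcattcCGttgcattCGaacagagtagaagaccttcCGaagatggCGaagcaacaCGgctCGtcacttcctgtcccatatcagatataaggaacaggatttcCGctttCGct
Rps27rt, chr9:114982740-114982889, minus strand: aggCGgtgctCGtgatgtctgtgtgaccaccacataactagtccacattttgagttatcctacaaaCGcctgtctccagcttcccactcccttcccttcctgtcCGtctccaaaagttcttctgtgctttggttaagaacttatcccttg
Rpl37, chr15:5116463-5116612, plus strand: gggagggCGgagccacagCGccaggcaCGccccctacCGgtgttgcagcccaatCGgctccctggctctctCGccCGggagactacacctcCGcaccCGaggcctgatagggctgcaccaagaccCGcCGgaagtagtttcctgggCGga
Rpl37rt, chr5:115110269-115110418, minus strand: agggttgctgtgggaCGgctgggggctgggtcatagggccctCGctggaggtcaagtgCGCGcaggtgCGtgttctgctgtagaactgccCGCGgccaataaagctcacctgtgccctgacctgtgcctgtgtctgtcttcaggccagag
Rps27 has 10 CpGs in this stretch and Rps27rt has 4. At the start, Rps27 averaged 11.1% in KO and 16.4% in WT, far under Rps27rt. Rpl37 has 12 CpGs and Rpl37rt has 7, and the Rpl37 start averaged 2.25% in KO and 3.41% in WT.

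**Figure D1:**
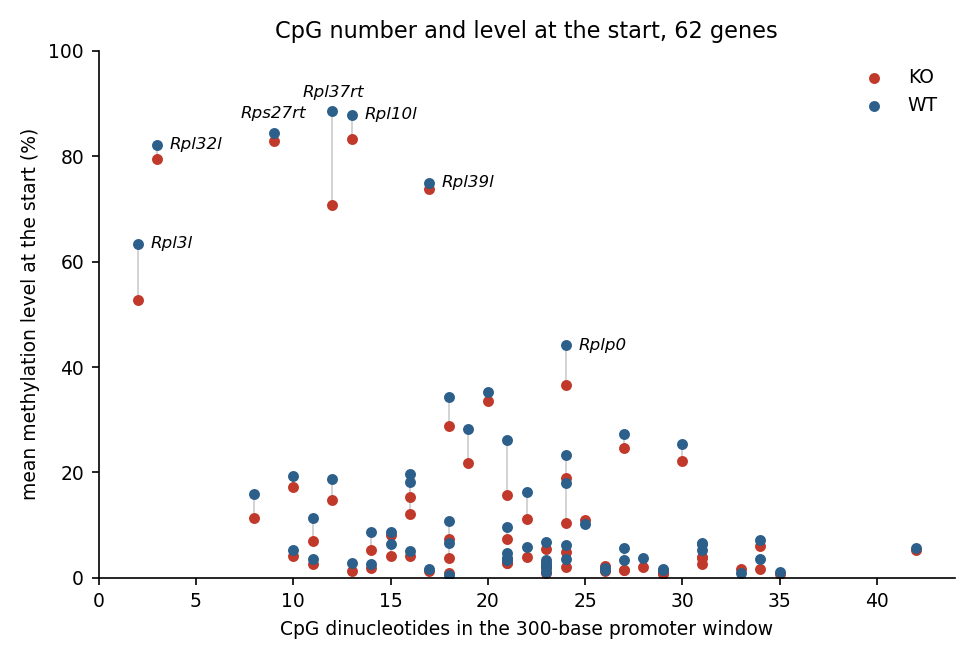
Mean methylation level at the start (y axis, %) against the number of CpG dinucleotides in the 300-base promoter window (x axis) for 62 ribosomal protein genes, with KO means in red and WT means in blue joined by a grey line per gene. The 6 starts with a WT level of at least 50% are paralogs or copies, and Rplp0, the next highest, had 36.6% in KO and 44.1% in WT.

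Away from the start, methylation was lower in KO along most ribosomal protein genes. Gene bodies, taken as the tiles with their midpoint inside the gene that are not start tiles, were measured in 54 of the 62 genes, since 8 hold no such tile. Their mean level was 53.1, 53.2 and 53.8% in the KO samples and 62.4, 61.98 and 63.7% in the WT samples. Called lower in KO (limma, adjusted p under 0.05 and at least 5 points) were 35 of 54 bodies, against 52.5% of all 14552 bodies, and 0 were called higher, against 0.0893%. The median difference was -8.61 points, beside -5.39 points for all bodies. All 3 KO samples were below all 3 WT samples at 37 of 54 bodies, against 77.4% of all bodies. With centring, 16 of 54 bodies were called, against 18.7% of all bodies. Bodies of the ribosomal protein genes are short, as the genes had a median length of 3179 bp against 17491 bp for all genes. Among genes of at most 6 kb, 29 of 46 member bodies were called, against 48.4% of all bodies of that length.

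Large-subunit genes made up 21 of the called bodies of 32 measured, and small-subunit genes 13 of 20. Rpl12 encodes a protein at the base of the stalk. Its body held 14.5, 21.8 and 18.5% in the KO samples and 42.3, 43.1 and 43.4% in the WT samples, a difference of -24.7 ± 1.89 points (SE; limma, adjusted p = 5.40e-05). Rpl28, another large-subunit gene, had 30.7, 39.1 and 42.8% in the KO samples and 59.3, 56.1 and 63.0% in the WT samples, a difference of -21.9 ± 3.33 points (SE, adjusted p = 0.000985). In both genes every KO sample was below every WT sample. The body of Rpl13a, whose protein also has a role in silencing of inflammatory transcripts outside the ribosome in human cells, had 20.4, 19.8 and 14.5% in the KO samples and 39.0, 33.6 and 43.2% in the WT samples (-20.3 ± 2.74 points, SE, adjusted p = 0.000568). Rps12, a protein of the head of the small subunit, had 44.0, 51.4 and 35.4% in the KO samples and 61.4, 62.7 and 58.9% in the WT samples (-17.4 ± 3.80 points, SE, adjusted p = 0.00523). The KO samples were again all below the WT samples, with the widest spread among the KO samples of Rps12. The body of Rpl10a averaged 12.9% ± 1.47 in KO and 29.7% ± 2.13 in WT (SD, n = 3 each; limma, adjusted p = 7.80e-05). At the other end of the list, Rpl37 had 82.5% in KO and 83.4% in WT, and Rps6 had 56.7% in KO and 58.3% in WT, with 0 of these called.

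The stalk was represented by Rplp0 and Rplp2. Rplp0 anchors the other stalk proteins, which recruit translation factors. Its body had 35.9, 28.8 and 38.1% in the KO samples and 50.4, 54.7 and 56.8% in the WT samples, a difference of -19.7 ± 2.79 points (SE; limma, adjusted p = 0.000709) with no overlap. The Rplp0 start had 39.1, 31.5 and 39.1% in the KO samples and 45.5, 45.4 and 41.4% in the WT samples, also with no overlap, but the adjusted p was 0.0817. With 1000 bp on either side the difference was -11.5 points and was called. Rplp2 averaged 6.11% in KO and 7.20% in WT at its start and 74.9% in KO and 82.4% in WT in its body (adjusted p = 0.0674 for the body). Of the 15 tiles over Rplp0 and its flanks, 11 were called lower, more than at any other member.

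Upstream flanks are the tiles of the 5 kb before the start, and 44 of 62 were called lower by the rule used for bodies, against 50.3% of all 16101 upstream flanks, and 0 were called higher, against 0.273%. Their mean level was 61.5% ± 0.377 in KO and 69.9% ± 0.626 in WT, and the median difference was -8.02 points, beside -6.21 points for all genes. All 3 KO samples were below all 3 WT samples in 51 of 62 upstream flanks, against 58.4% of all upstream flanks. With centring the count was 9 of 62, against 18.5% of all upstream flanks. Within 2 kb of the start 28 of 60 were called, against 37% of all, and without tiles that overlap other protein-coding genes 29 of 42, against 46.7%. At Rpl13a the upstream flank had 51.7, 51.2 and 51.1% in the KO samples and 77.1, 80.0 and 78.6% in the WT samples (-27.2 ± 2.27 points, SE, limma adjusted p = 7.95e-07). All 4 tiles of that flank were called lower, and it overlaps Flt3l, which encodes a haematopoietic growth factor. Rps10, a small-subunit protein near the path of the mRNA, had 48.8, 51.1 and 53.0% in the KO samples and 72.4, 66.4 and 72.7% in the WT samples upstream (-19.5 ± 2.60 points, SE, adjusted p = 4.61e-05). Rplp0 had 43.0, 44.1 and 44.3% in the KO samples and 64.4, 63.8 and 61.3% in the WT samples (-19.4 ± 2.30 points, SE, adjusted p = 1.76e-05), over the neighbouring gene Pxn, which encodes the adhesion protein paxillin. Groups overlapped in 0 of these 3 flanks. The upstream flanks of Rps6, Rpl27a and Rpl12 had 58.5, 62.8 and 64.6% in KO against 75.6, 78.2 and 78.2% in WT, with limma adjusted p of 0.000117, 0.000259 and 0.000329. Rpl11, whose protein binds Mdm2 when ribosome assembly fails, had 62.8% in KO and 62.1% in WT, which makes 0.69 points, and was the only upstream flank among the 62 with a higher KO mean.

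Downstream flanks, the 5 kb past the far end, held the highest share of calls. Their mean level was 51.7, 51.6 and 52.3% in the KO samples and 62.6, 62.3 and 62.9% in the WT samples, and 55 of 62 were called lower, against 49% of all 16152 downstream flanks, with 0 called higher, against 0.316%. Of the large-subunit genes 31 of 37 were called, of the small-subunit genes 22 of 23, and of the stalk genes 2 of 2. The median difference was -9.48 points, beside -5.37 points for all genes, and with centring 24 of 62 were called, against 14.9% of all downstream flanks. Within 2 kb of the far end 49 of 62 were called, against 34.4% of all. Without tiles of other protein-coding genes 37 of 46 were called lower, against 41.8%. Among genes of at most 6 kb, 48 of 54 members were called, against 42.1% of all. All 3 KO samples were below all 3 WT samples in 54 of 62 downstream flanks, against 58.6% of all downstream flanks. The 7 that were not called were those of Rpl9, Rps27, Rpl22, Rpl41, Rpl39l, Rpl4 and Rpl32l.

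**Figure D2:**
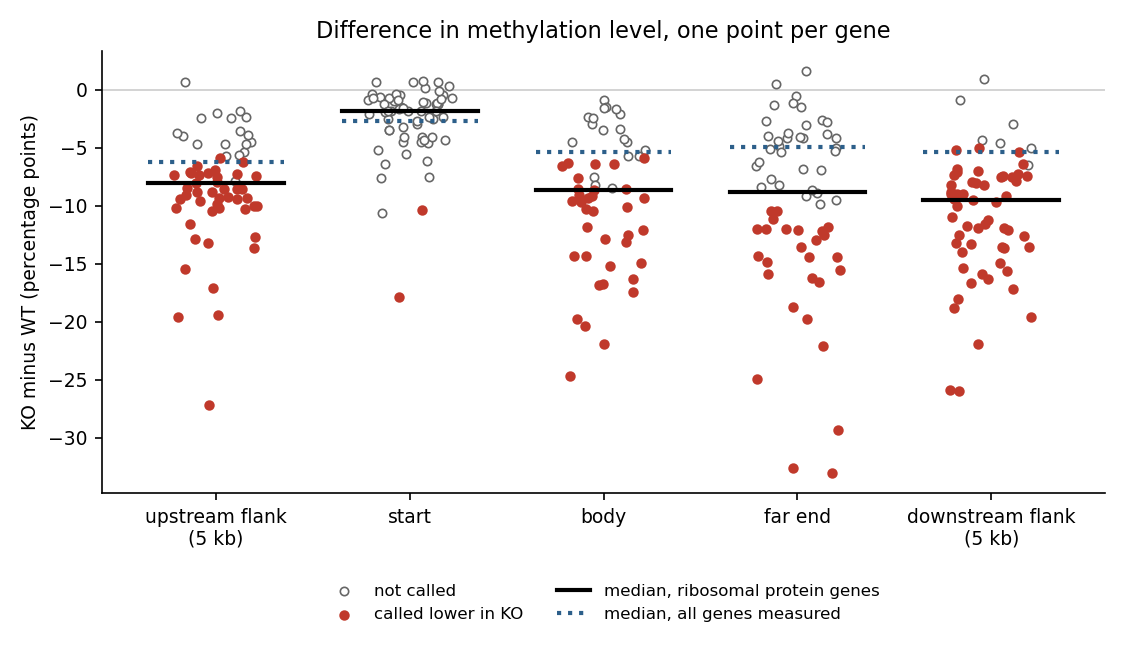
KO minus WT methylation (y axis, percentage points) at the upstream flank, start, body, far end and downstream flank of ribosomal protein genes, with 1 point per gene, filled where called lower in KO and open where not called. Black bars are medians of the ribosomal protein genes (-8.02, -1.81, -8.61, -8.78 and -9.48 points) and dotted bars are medians of all genes measured.

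The largest downstream differences were at Rpl10a and Rpl27a, both of the large subunit. The downstream flank of Rpl10a had 30.3, 28.6 and 28.4% in the KO samples and 57.2, 55.1 and 52.8% in the WT samples (-26.0 ± 1.80 points, SE, limma adjusted p = 5.20e-07), and it lies over Tead3, a transcription factor gene of the Hippo pathway. Rpl27a had 32.2, 36.6 and 35.2% in the KO samples and 57.7, 59.7 and 64.2% in the WT samples (-25.9 ± 2.16 points, SE, adjusted p = 2.34e-06), with all 6 tiles called, in a flank that overlaps Denn2b. In both the lowest WT sample was more than 20 points above the highest KO sample. Rps28, a small-subunit protein near the exit of the mRNA, had 43.3, 45.6 and 43.3% in the KO samples and 69.6, 62.7 and 65.6% in the WT samples (-21.9 ± 2.19 points, SE, adjusted p = 9.14e-06), over Kank3. Rpl38, known from the tail-short mouse mutant, had 28.4, 28.1 and 31.4% in the KO samples and 47.0, 49.2 and 50.5% in the WT samples (-19.6 ± 1.76 points, SE, adjusted p = 4.08e-06), over Ttyh2. Neither of these flanks showed any overlap between groups. Rps26, which contacts the mRNA upstream of the start codon in the ribosome, had 61.3, 64.4 and 63.3% in the KO samples and 81.4, 81.6 and 82.3% in the WT samples (-18.8 ± 1.87 points, SE, adjusted p = 8.69e-06). Rps10 had 41.9, 47.3 and 41.9% in the KO samples and 63.3, 58.9 and 63.1% in the WT samples (-18.1 ± 2.22 points, SE, adjusted p = 4.45e-05). The flanks of Rps26 and Rps10 overlap no other annotated gene.

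**Figure D3:**
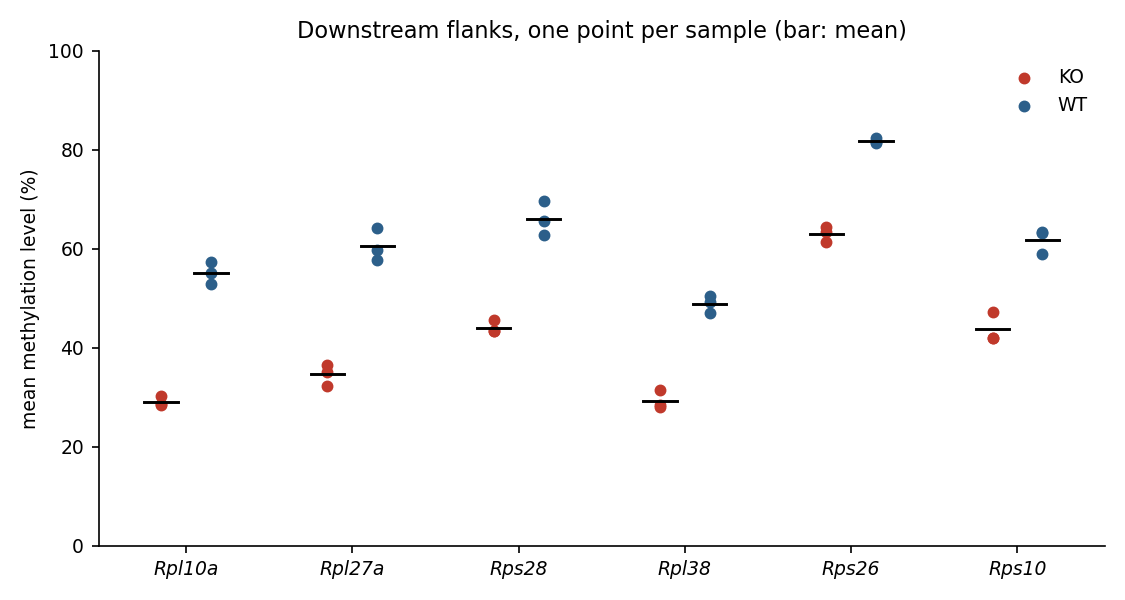
Mean methylation level of the downstream flank (y axis, %) in each sample for the 6 ribosomal protein genes with the largest differences, KO samples in red on the left and WT samples in blue on the right of each pair, with a bar at the mean of 3. At each gene all KO samples sit below all WT samples, for example 28.4 to 30.3% in KO and 52.8 to 57.2% in WT at Rpl10a.

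The far ends were examined after the results for the other regions were seen, with the rule used for starts. A far end was taken as the tiles that overlap 500 bp on either side of the gene's end. It therefore shares tiles with the body or downstream flank and, in the shortest genes, with the start, and is not a separate region. Of 62 far ends, 27 were called lower, against 21.6% of all 15816 far ends, and 0 were called higher, against 0.0695%, with a median difference of -8.78 points beside -4.97 points for all genes. With centring 10 were called, against 9.27% of all far ends. All 3 KO samples were below all 3 WT samples at 44 of 62 far ends, against 44% of all far ends. Rpl13a had 25.3, 20.9 and 17.01% in the KO samples and 51.2, 54.8 and 56.3% in the WT samples at its far end (-33.0 ± 2.87 points, SE, limma adjusted p = 3.36e-07). Rpl12 had 18.6, 29.8 and 25.8% in the KO samples and 54.4, 58.4 and 59.0% in the WT samples (-32.6 ± 3.20 points, SE, adjusted p = 1.43e-06), and neither gene showed overlap. Rps9, a small-subunit protein at the entry of the mRNA channel, averaged 14.8% ± 3.92 in KO and 39.7% ± 1.71 in WT, and Rps3, its neighbour at that entry, averaged 59.7% ± 2.74 in KO and 81.8% ± 3.07 in WT. Rpl10a and Rplp0 had 21.8 and 24.7% in KO against 51.1 and 44.4% in WT. Of the 17 members with both a start and a small nucleolar RNA gene inside, 0 starts, 11 bodies, 11 upstream flanks, 16 downstream flanks and 12 far ends were called. Of the 45 without such a gene, 2 starts, 24 of 37 bodies, 33 upstream flanks, 39 downstream flanks and 15 far ends were called. Over all genes, 12.8% of starts, 52.5% of bodies, 50.3% of upstream flanks, 49% of downstream flanks and 21.6% of far ends were called. The difference between members with and without a small nucleolar RNA gene was not tested. In all, 27 of the 82 members carry 54 small nucleolar RNA genes.

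Tile by tile along the gene, the tile that holds the start had 8.78% ± 0.231 in KO and 10.1% ± 0.452 in WT on average over the ribosomal protein genes, and 1.61% of these tiles were called. In other genes that tile had 21.4% in KO and 24.6% in WT, with 9.14% called. A tile under 10% in WT cannot be called lower by this rule. By 5 tiles past the start the ribosomal protein genes had 52.3% in KO and 64.4% in WT (-12.1 points) with 51.7% of tiles called, where other genes differed by -6.99 points with 22.8% called. Counted from the far end, the first tile past it had 47.8% ± 0.303 in KO and 60.7% ± 0.442 in WT, and the tile after that had 46.7% ± 0.886 in KO and 59.9% ± 0.440 in WT. Of these tiles 53.2 and 55.9% were called, beside 20.6 and 21.4% in other genes. The ribosomal protein genes are short, so tiles counted from the start also reach past the far end.

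**Figure D4:**
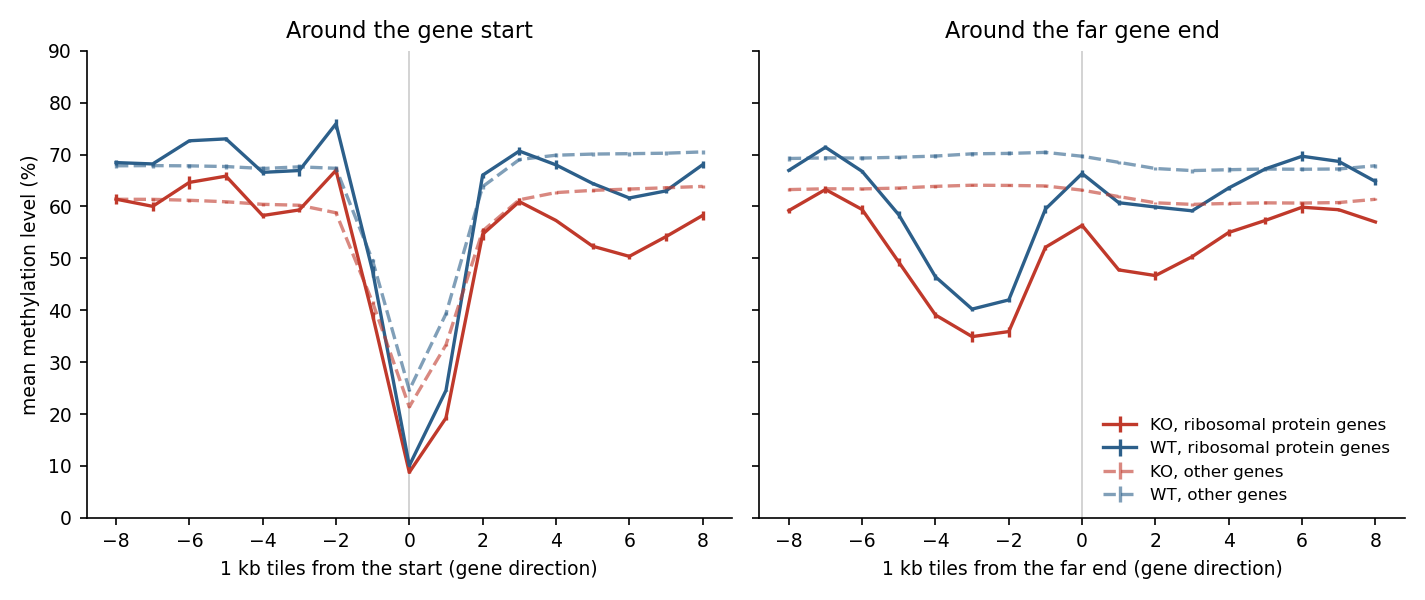
Mean methylation level (y axis, %) in 1 kb tiles around the gene start (left) and the far gene end (right), in tiles in the direction of the gene (x axis), for ribosomal protein genes (solid) and other genes (dashed), KO in red and WT in blue, with SD over 3 samples. Both groups fall to 8.78% (KO) and 10.1% (WT) in the tile that holds the start, and the 2 solid lines are widest apart in the first tiles past the far end.

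All 1168 tiles within 5 kb of the 82 genes could be used, including the 20 genes for which no RefSeq start was at hand. Called lower (limma over all tiles, adjusted p under 0.05 and at least 10 points) were 380 of these tiles, against 16.2% of all 1954255 tiles, and 0 were called higher, against 0.0796%. The median difference was -7.17 points. With centring 182 were called lower and 5 higher, against 6.64% lower of all tiles. The share of all tiles called higher with centring is not given here, so the 5 give no contrast. No tile was called lower at Rpl9, Rpl39l and Rpl41. How many of all genes hold no called tile was not counted, so this gives no contrast with other genes. By position, 9 of 124 start tiles were called, 55 of 158 body tiles, 83 of 271 upstream tiles and 144 of 333 downstream tiles. Tiles that overlap another protein-coding gene or its start were called in 127 of 412 cases and the remaining tiles in 253 of 756. Tiles shared between neighbouring members, such as the 4 of Rpl3l and Rps2, were counted once.

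The tiles with the smallest p lay at the end of a ribosomal protein gene or in a neighbouring gene. At chr7:45125001-45126000, which holds the far end of Rpl13a, the level was 11.2, 4.21 and 6.56% in the KO samples and 45.9, 51.1 and 43.3% in the WT samples (-39.4 ± 2.86 points, SE, limma adjusted p = 6.14e-09). Beyond this tile, at chr7:45124001-45125000, Rpl13a had 0.657% in KO and 1.71% in WT. Near Rpl23a, whose protein sits at the exit of the peptide tunnel, adjacent tiles from chr11:78179001-78180000 and chr11:78180001-78181000 lay over Tlcd1. The first tile had 1.93% ± 0.494 in KO and 26.5% ± 2.99 in WT, and the second, which also reaches an end of Rpl23a, had 26.8% ± 5.74 in KO and 78.6% ± 4.19 in WT, the largest difference of any tile here (-51.8 ± 4.35 points, SE, adjusted p = 4.36e-08). Next to Rpl24, the gene changed in the belly-spot-and-tail mouse, the tile at chr16:55972001-55973000 had 18.8, 15.9 and 18.3% in the KO samples and 54.9, 62.2 and 64.5% in the WT samples, within Zbtb11. The tile at chr17:28333001-28334000 near Rpl10a had 11.8% ± 1.95 in KO and 49.2% ± 0.685 in WT, and that at chr11:114676001-114677000 near Rpl38 had 4.86% ± 2.64 in KO and 27.8% ± 0.858 in WT. These 6 tiles were chosen among called tiles with no overlap between groups, so their lack of overlap is not a result.

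Called tiles often stood side by side. The longest run was at Rpl3, whose protein reaches the peptidyl transferase centre, with 9 adjacent tiles from chr15:80073001-80082000 that averaged 31.4, 33.8 and 33.0% in the KO samples and 57.0, 56.3 and 55.9% in the WT samples. It overlaps no other protein-coding gene and covers 4 tiles of Rpl3 itself, which holds 3 small nucleolar RNA genes. The run ends next to tiles that had 0.534 and 0.951% in KO and 0.825 and 0.313% in WT. Rpl10a, Rpl13, Rpl27a and Rps12 each had a run of 6 tiles. At Rpl13 that run averaged 46.2% ± 1.53 in KO and 62.8% ± 0.715 in WT, and at Rps12 it averaged 48.0% ± 4.36 in KO and 64.5% ± 1.93 in WT. At Rpl10a the called run began directly after 2 tiles that had 0.595 and 0.850% in KO and 1.67 and 5.05% in WT, and its first tile lies in the gene.

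**Figure D5:**
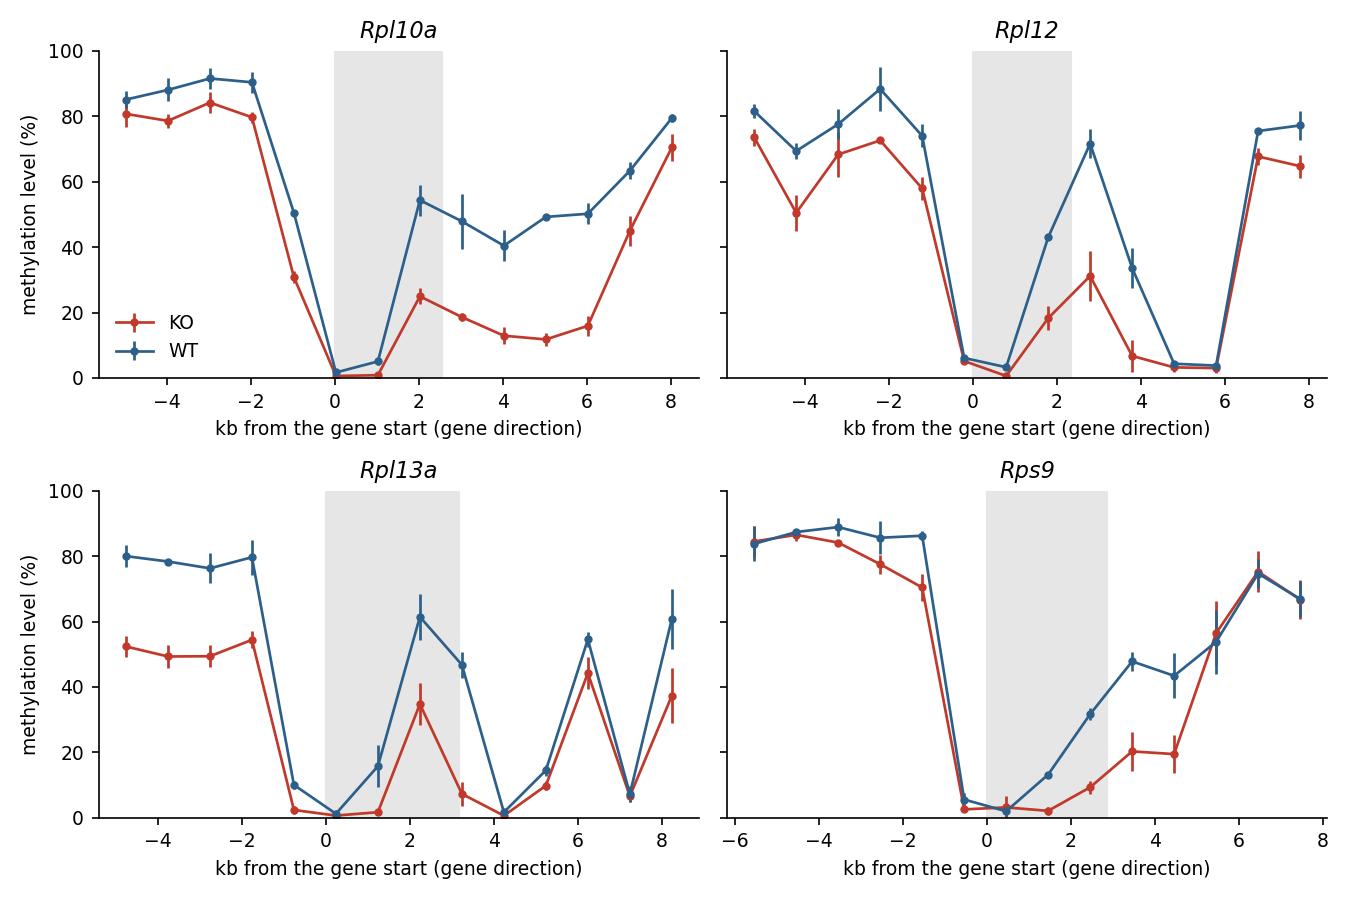
Methylation level (y axis, %) of each 1 kb tile against the distance of its middle from the gene start (x axis, kb in the direction of the gene) at Rpl10a, Rpl12, Rpl13a and Rps9, KO in red and WT in blue, points and error bars as mean and SD over 3 samples, with the gene span shaded. In each panel the tile that holds the start is under 10% in both groups, and the tiles at the far end separate, for example 31.2% in KO and 71.6% in WT in the tile at the end of Rpl12.

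For the 20 members without a RefSeq start at hand, among them Rpl3, Rpl23a and Rplp1, the start was taken to be whichever gene end was less methylated on average. That choice favours a low start, so its level is a description. These ends averaged 12.1% in KO and 14.5% in WT, and the highest was that of Rpl17, with 65.1 and 67.3%. The lowest tile means over Rpl17 and its flanks were 1.06% in KO and 1.02% in WT. Whether the end taken for Rpl17 is its start was not tested. Of the 20 ends 0 were called, where 13.6% of all starts were called when such ends were included. Of the bodies 15 of 19 were called lower, of the upstream flanks 14 of 20 and of the downstream flanks 19 of 20, against 52.7, 51 and 49.3% of all genes in the same fit. Rpl3 had 35.2% ± 2.88 in KO and 58.3% ± 0.558 in WT in its body (limma adjusted p = 3.77e-05) and 28.0% ± 0.420 in KO and 49.5% ± 1.88 in WT in its downstream flank (adjusted p = 1.03e-06). Rplp1, the partner of Rplp2 in the stalk, had 44.8% ± 4.48 in KO and 62.7% ± 2.34 in WT downstream. The single downstream flank that was not called was that of Rps20, with 70.0% in KO and 75.3% in WT (adjusted p = 0.0696). With these genes included, 50 of 73 bodies, 59 of 82 upstream flanks and 74 of 82 downstream flanks were called.

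Other genes of the translation machinery give the setting, beside calls at 12.8% of starts, 52.5% of bodies, 50.3% of upstream flanks and 49% of downstream flanks over all genes. Of the genes for mitochondrial ribosomal proteins, 2 of 69 starts, 26 of 64 bodies, 31 of 69 upstream flanks and 38 of 69 downstream flanks were called lower, with a median downstream difference of -5.91 points. Of the initiation factor genes, 2 of 28 starts, 8 of 28 bodies, 10 of 28 upstream flanks and 20 of 28 downstream flanks were called, with a median downstream difference of -9.10 points. Eif4e, the cap-binding factor, was one of the called starts, with 9.73% ± 1.49 in KO and 44.2% ± 0.811 in WT (limma adjusted p = 6.69e-06). Ribosome biogenesis genes had 1 of 31 starts, 11 of 30 bodies, 16 of 30 upstream flanks and 19 of 31 downstream flanks called, with a median downstream difference of -6.10 points, and the called start was that of Ubtf, a transcription factor of ribosomal RNA genes, with 27.8% in KO and 41.2% in WT. Elongation factor and other tract-bearing genes had 0 of 7 starts, 4 of 7 bodies, 6 of 7 upstream flanks and 5 of 7 downstream flanks called, with a median downstream difference of -9.84 points. Rpsa, Fau and Rack1, which encode ribosomal proteins under other names, had 0 of 3 starts, 2 of 3 bodies, 1 of 3 upstream flanks and 3 of 3 downstream flanks called, with a median downstream difference of -10.7 points. The last 2 medians lie beyond the -9.48 points of the ribosomal protein genes.

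Among the 10 paralogs, 1 start, 2 of 5 bodies, 9 upstream flanks, 8 downstream flanks and 1 far end were called, and among the other members with a start 1 of 52 starts, 33 of 49 bodies, 35 of 52 upstream flanks, 47 of 52 downstream flanks and 26 of 52 far ends. Over all genes the shares were 12.8% of starts, 52.5% of bodies, 50.3% of upstream flanks, 49% of downstream flanks and 21.6% of far ends. With 10 paralogs, and 5 of them with a measured body, the paralog counts are too small to be set apart from these shares. The 2 called paralog bodies were Rpl3l, with 57.1% in KO and 71.4% in WT (limma adjusted p = 4.49e-05), and Rpl37rt, with 63.4% in KO and 73.6% in WT (adjusted p = 0.000195). The difference between paralogs and other members was not tested.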

How the data were processed

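Methylation was measured in lung endothelial cells sorted by flow cytometry, from 30 ng of DNA per sample in 3 libraries, read as 100-base paired ends, per the labels' protocols. The submitters' processing notes name BWA 0.7.8 and the build mm10. The deposited values are a fraction (0 to 1) per 1 kb tile and sample, multiplied here to percent. How methylation was called, filtered or smoothed is not given in the sources used here, and neither are read counts, so depth could not be weighed and counting intervals were left out.

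Levels were averaged over the tiles of each region for all autosomal protein-coding genes. A region or tile was tested with limma 3.58.1 (R 4.3.3, variance trend) on percent levels, all 6 samples, with Benjamini-Hochberg adjustment over all regions of a kind. Calls needed an adjusted p under 0.05 and 10 points (starts, far ends, tiles) or 5 points (bodies, flanks). Replicate numbers were not used as a block. Starts, strand and sequences came from RefSeq promoter windows of GRCm38.p6 (250 bases before to 50 from the start). The planned use of the lower gene end for the 20 members with no such window was kept as an alternative, because it selects low ends.

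Members and lists were chosen with earlier results of these data known. Named are, for each region, the 6 members with the largest called difference, the 6 highest starts, paralogs and stalk genes. Up to 2 genes of a comparison list are also named, and the 6 tiles with the smallest p among called tiles with no group overlap. Those at far ends and other members, such as Rpl15, Rpl11, Rpl3 and Rps9, were chosen after their values were seen. Alternatives were centring, scaling, logit values, no trend, no minimum difference, other windows, tiles of other protein-coding genes left out, a replicate block and leaving out each sample. Regions and figures were made with Python 3.11.15 (pandas 2.3.3, numpy 2.4.6, matplotlib 3.10.9). Individual values of some members are not reported here.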

Additional observations from a re-analysis of the deposited data

How the results depend on the processing

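The 2 called starts became 18 with no minimum difference, 1 with centred or scaled samples, 5 with 1000 bp on either side of the start, 1 with only the tile that holds the start, and 1 to 3 with each sample left out (1 without KO sample 2). The 35 called bodies became 16 with centring and 17 with scaling, and 31 to 37 with each sample left out. The 44 upstream flanks became 9 with centring, 9 with scaling, 28 of 60 with a 2 kb flank and 29 of 42 without tiles of other genes, and 37 to 43 with each sample left out. The 55 downstream flanks became 24 with centring, 26 with scaling, and 47 to 54 with each sample left out. The 27 far ends became 10 and 13 with centring and scaling, and the 380 tiles became 182 and 184. With each sample left out, 24 to 28 far ends and 305 to 352 tiles were called. Centring removes the median difference of 4.89 points between the groups. For scaling, left-out samples and the replicate block, the shares over all features are not given here. Those counts show only how the member counts move, and not a contrast with other genes. Downstream calls higher in KO appeared at Rpl32l with scaling (6.98 points, limma adjusted p = 0.0199) and at Rpl4 without tiles of other genes (7.41 points, adjusted p = 0.0490). Same-numbered KO and WT samples did not deviate together from their group means (r = 0.006, -0.003 and 0.011 across tiles). Deviations of single tiles may be mostly measurement noise, so whether same-numbered samples share a batch cannot be told from these values. With the replicate block, 2 starts, 36 bodies, 43 upstream flanks, 55 downstream flanks, 27 far ends and 377 tiles were called.

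Of the 32 named results that were called, 29 kept their call and direction under every alternative run. The exceptions were the Rpl10a start (with centring, scaling, without KO sample 2, with 1000 bp on either side and with the start tile alone), and the Rplp0 upstream and Rps28 downstream flanks with a 2 kb flank. Uncalled starts whose sign turned with centring were Rpl10l (0.273 points), Rps27rt (3.28), Rpl32l (2.37), Rpl39l (3.73), Rpl22l1 (1.69), Rpl36al (4.51), Rpl7l1 (0.393), Rplp2 (3.81) and Rps27l (3.25). With scaling the sign turned at Rpl10l (2.29), Rps27rt (5.18), Rpl32l (4.04), Rpl39l (4.86) and Rpl36al (0.068). In its start tile alone Rps27rt had 0.288 points. With each sample left out, Rps27rt ranged from -3.01 to 0.318, Rpl32l from -4.08 to 0.561 and Rpl39l from -2.56 to 1.19 points. The cause of these changes was not tested. Centring adds the same points to starts near 0%, where a level cannot fall by that much.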
